A study of Mus musculus with 7 samples.

Results

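The genes described here are 35 genes of glycolysis and of the response to low oxygen, chosen by name from the 49492 genes of a count table of mouse glioblastoma (GBM). They cover glucose uptake and trapping (4 genes), phosphofructokinase and its regulators (5), the enzymes from aldolase to pyruvate (9), lactate formation and export (4), the pyruvate dehydrogenase kinases (4), targets of hypoxia-inducible factor (HIF) outside glycolysis (7) and the HIF alpha subunits (2). Bulk RNA-seq was available for 4 NPCTKO and 3 NSCHRas-shp53 samples, all labelled C57BL/6 and 3 months of age, and no unmodified or non-tumor library was analysed here. In NPCTKO mice, embryonic neural progenitors received Cas9 and guide RNAs against tumor suppressor genes that include *Trp53* and *Nf1* from a piggyBac vector by in utero electroporation, and RNA was taken from tumor cells sorted for EGFP or DsRed. In NSCHRas-shp53 mice, a lentivirus carrying a *Trp53* short hairpin RNA and a constitutively active human *HRAS* was delivered to the ventricular-subventricular zone of adults, and RNA was taken from whole, unsorted tumor. The models therefore differ in the altered genes, in the cell of origin and in sorting, and these cannot be told apart in any comparison below.

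Glycolysis splits glucose into pyruvate, which either enters the mitochondria through pyruvate dehydrogenase or is reduced to lactate and exported. When oxygen is scarce, the prolyl hydroxylases stop marking the HIF alpha subunits for destruction, and HIF binds a short core motif near its target genes and raises their transcription. Many glycolytic enzymes, the lactate exporter, a pyruvate dehydrogenase kinase and the membrane carbonic anhydrases are textbook HIF targets, and areas of necrosis with strong HIF activity are a hallmark of GBM.

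Each library held 15002873 to 19840860 counts, and levels are given as CPM (counts scaled to a common library size, after TMM factors that adjust for library composition), or as FPKM (fragments scaled to transcript length and library size) where genes are compared with each other. The 35 genes took 0.660% to 1.31% of the counts of a library. There was no control library against which to check the targeted genes, and *Trp53* was at 91.9 to 201 CPM in NPCTKO and at 54.9 to 82.3 CPM in NSCHRas-shp53 samples. The summed level of 12 markers of tumor-associated macrophages (TAMs) was 21670, 27647, 613 and 4148 CPM in NPCTKO samples 1 to 4, although these were sorted, and 8850, 3192 and 3648 CPM in NSCHRas-shp53 samples 1 to 3. Markers of other resident cells were higher in the unsorted tissue without overlap, with summed levels of 51.2 to 389 against 626 to 1425 CPM for 9 endothelial markers, 20.8 to 35.9 against 291 to 482 for 8 mural markers, 63.4 to 95.0 against 771 to 1578 for 11 neuronal markers and 213 to 666 against 2778 to 3418 for 8 astrocyte markers. Of these, 4 endothelial, 5 mural, 10 neuronal and 5 astrocyte markers were higher by the edgeR test described next. That test called 7.77% of all genes tested higher and 5.28% lower. Levels of 6 markers of oligodendrocyte precursor cells went the other way, at 4060 to 5803 against 807 to 1416 CPM, with 4 of the 6 lower. Summed levels overlapped for 8 oligodendrocyte markers (980 to 6422 against 1145 to 8302 CPM), 4 T cell markers (2.92 to 20.3 against 8.17 to 19.9 CPM) and 4 erythroid markers (0.781 to 38.6 against 22.2 to 253 CPM, 2 of them higher). *P2ry12*, *Gfap*, *Gpr17* and *Alas2* were listed at 0 counts in all libraries and are in none of these sums. In bulk RNA, fewer cells of a type and less RNA per cell cannot be told apart, and the part of cell composition in the results below was not tested.

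The question of the main comparison was which of the 35 genes differed between the models. Higher in NSCHRas-shp53 samples were *Epas1*, *Car9*, *Pdk4*, *Aldoc*, *Pdk1* and *Egln3*, whereas no gene was called lower. By edgeR's quasi-likelihood test with a Benjamini-Hochberg adjusted p under 0.05, 6 of 34 genes with counts were higher, against a background of 7.77% of the 16091 genes tested, and 0 were lower, against 5.28%. In either direction, 13.1% of all genes tested were called. At an unadjusted p under 0.05, 9 were higher and 1, *Pdk3*, was lower in the same test. The share of all genes at an unadjusted cutoff was not counted, here or below, and the shares above do not apply to it. DESeq2 and limma each called *Pdk3* lower. DESeq2 called 8 of the 34 genes higher and 1 lower, and of all 16091 genes 2030 higher and 1932 lower. The median log2 fold change, NSCHRas-shp53 minus NPCTKO, was 0.16 over the 34 genes and -0.10 over all genes tested. Levels in CPM did not overlap between the models for 9 genes that were higher in NSCHRas-shp53 (the 6 above, *Pfkm*, *Pfkp* and *Eno2*), against a background of 16.3%, and for 1 that was lower (*Pdk3*), against 14.9%. In FPKM, which also covers *Adm*, 11 of 35 genes were higher without overlap, against 14%, and 1 was lower, against 17.3%.

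**Figure D1:**
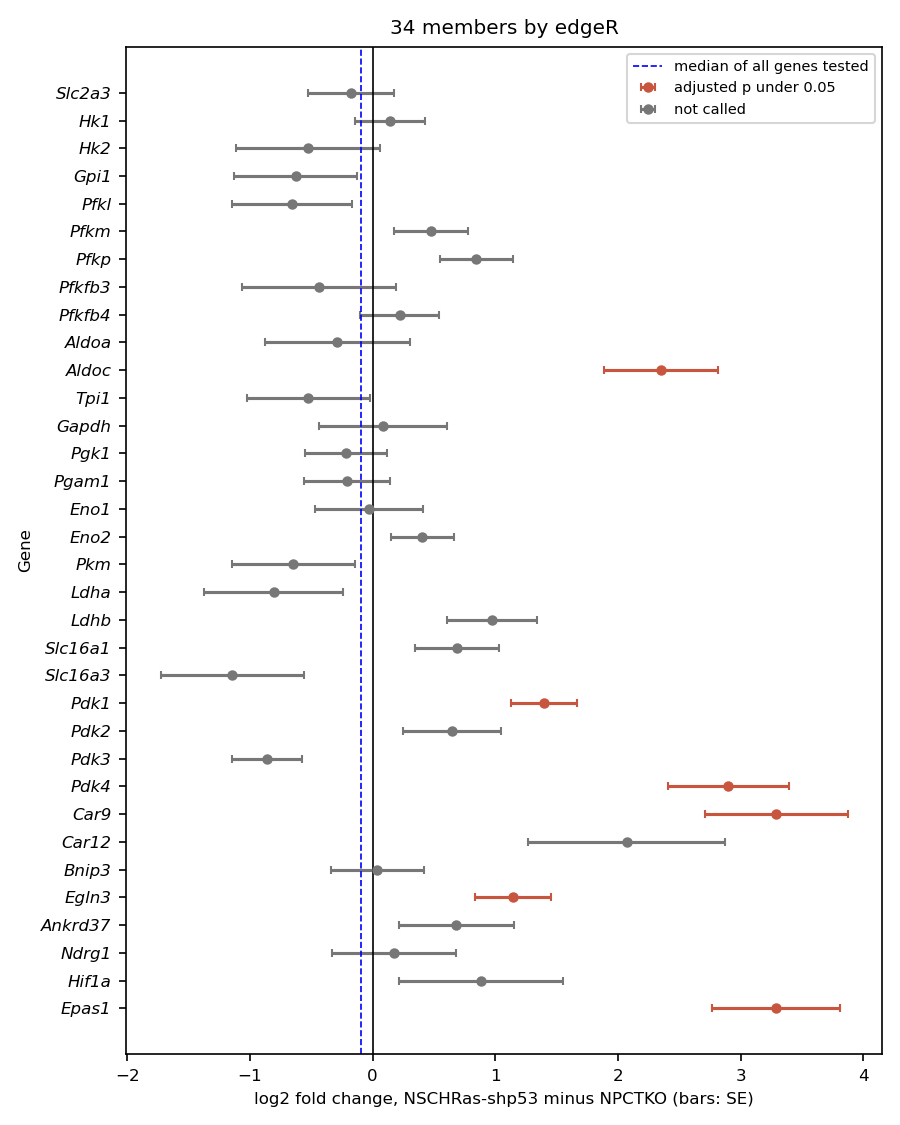
Log2 fold change with its standard error (x axis, NSCHRas-shp53 minus NPCTKO, edgeR) for each of the 34 genes with counts (y axis, ordered by role); red marks an adjusted p under 0.05, and the dashed line is the median of all genes tested, -0.10. The 6 red points lie between 1.15 and 3.29, while the enzymes other than *Aldoc* scatter on both sides of 0.

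Of the HIF alpha subunits, *Epas1* was called higher and *Hif1a* was not called, and the difference between their changes was not tested. *Epas1*, which encodes HIF-2 alpha and is well known from endothelial cells, was at 13.9, 17.5, 8.70 and 38.4 CPM in NPCTKO samples 1 to 4 and at 265, 158 and 153 CPM in NSCHRas-shp53 samples 1 to 3. Every NSCHRas-shp53 sample was above every NPCTKO sample. The mean rose from 19.6 ± 13.0 (SD, n = 4) to 192 ± 63.1 CPM (n = 3), a log2 fold change of 3.29 ± 0.52 (SE, edgeR adjusted p = 0.00834). Endothelial and astrocyte markers were also higher in these samples, as given above. NPCTKO sample 4, with the highest *Epas1* of its model, had the highest summed astrocyte level of its model (666 CPM). Its summed endothelial level was 248 CPM, against 283, 389 and 51.2 CPM in NPCTKO samples 1 to 3. The part of either cell type in the level of *Epas1* was not tested.

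*Hif1a*, which encodes HIF-1 alpha and is controlled mainly at the protein level, was read from the FPKM table, since 90.8% of its exonic bases lie inside the span of *Gm15283*, where a read may be left uncounted. Its FPKM was 17.5, 26.2, 34.2 and 43.3 in NPCTKO samples 1 to 4 and 65.7, 40.5 and 64.9 in NSCHRas-shp53 samples 1 to 3. NSCHRas-shp53 sample 2 lay below NPCTKO sample 4, so the models overlapped. The difference in log2(FPKM + 1) was 0.93 ± 0.35 (SE) and was not called by limma (adjusted p = 0.114), and neither was the count-based fold change of 0.88 ± 0.67 by edgeR (adjusted p = 0.411). Of the summed FPKM of both subunits, *Epas1* held 12.7%, 11.6%, 4.5% and 14.1% in NPCTKO samples 1 to 4 and 42.3%, 42.8% and 31.4% in NSCHRas-shp53 samples 1 to 3. *Hif1a* thus had the larger FPKM in all 7 libraries, and the share of *Epas1* did not overlap between the models. In counts per kilobase, which are short of *Hif1a* reads if those were left uncounted, *Epas1* was the larger in all 7, at 52.2% to 80.4% against 91.2% to 97.5%.

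Among the HIF-induced genes outside glycolysis, *Car9* moved most. Carbonic anhydrase 9 sits at the cell surface, where it handles the acid that glycolytic cells export, and is a common tissue marker of hypoxia. *Car9* was at 7.94, 7.41, 1.72 and 7.80 CPM in NPCTKO samples 1 to 4 and at 57.3, 92.2 and 32.7 CPM in NSCHRas-shp53 samples 1 to 3. The groups did not overlap, and NPCTKO sample 3 lay well below the other sorted samples. The mean rose from 6.22 ± 3.01 to 60.7 ± 29.9 CPM, a log2 fold change of 3.29 ± 0.58 (edgeR adjusted p = 0.0115). The call was lost without NSCHRas-shp53 sample 2 (edgeR adjusted p = 0.0543). For *Car9*, 31.1% of exonic bases lie inside the span of *Gm12454*. Its FPKM did not overlap either, at 0.832 to 5.15 against 19.7 to 50.2. The related *Car12* was at 2.22, 1.56, 2.71 and 5.14 CPM in NPCTKO samples 1 to 4 and at 3.17, 4.82 and 28.7 CPM in NSCHRas-shp53 samples 1 to 3. Only NSCHRas-shp53 sample 3, the one with the lowest *Car9* of its model, stood out, and the difference was not called (log2 fold change 2.07 ± 0.80, edgeR adjusted p = 0.125). DESeq2 called it higher, as it did 2030 of all 16091 genes.

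*Egln3*, a prolyl hydroxylase that marks HIF alpha for destruction and is itself HIF-induced, was at 26.8, 18.4, 20.6 and 26.5 CPM in NPCTKO samples 1 to 4 and at 44.0, 69.3 and 39.8 CPM in NSCHRas-shp53 samples 1 to 3. The groups did not overlap, and the log2 fold change was 1.15 ± 0.31 (edgeR adjusted p = 0.0450). This call lay close to the threshold and was lost when any 1 of the 7 libraries was left out, with an adjusted p of up to 0.191 over all alternatives. *Adm*, which encodes the vasodilator peptide adrenomedullin, had 0 counts in every library and lies wholly inside the span of *Gm28863*. Its FPKM was 4.07, 4.74, 3.67 and 12.2 in NPCTKO samples 1 to 4 and 18.2, 38.6 and 13.6 in NSCHRas-shp53 samples 1 to 3. NPCTKO sample 4 came close to the lowest NSCHRas-shp53 sample, but the groups did not overlap. The difference in log2(FPKM + 1) was 1.78 ± 0.47 (limma adjusted p = 0.0386), in a test that called 8.43% of 13381 genes higher, and it lost its call when any library but NPCTKO sample 4 was left out (limma adjusted p of 0.057 to 0.138).

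The other HIF-induced genes of the set were not called by edgeR, DESeq2 or limma. *Bnip3*, a mitophagy receptor, had nearly equal means of 21.1 ± 7.14 and 21.6 ± 6.51 CPM (log2 fold change 0.04 ± 0.38, edgeR adjusted p = 0.961), with 57.9% of its exonic bases inside another gene's span. *Ndrg1*, a stress-induced gene of myelinating and tumor cells, was at 19.8 to 88.6 CPM in NPCTKO and 38.2 to 74.9 CPM in NSCHRas-shp53 samples. *Ankrd37* stayed between 2.08 and 8.68 CPM in all libraries. Of this group, edgeR called *Car9* and *Egln3*, DESeq2 these and *Car12*, and limma on FPKM *Adm*, *Car9* and *Egln3*.

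**Figure D2:**
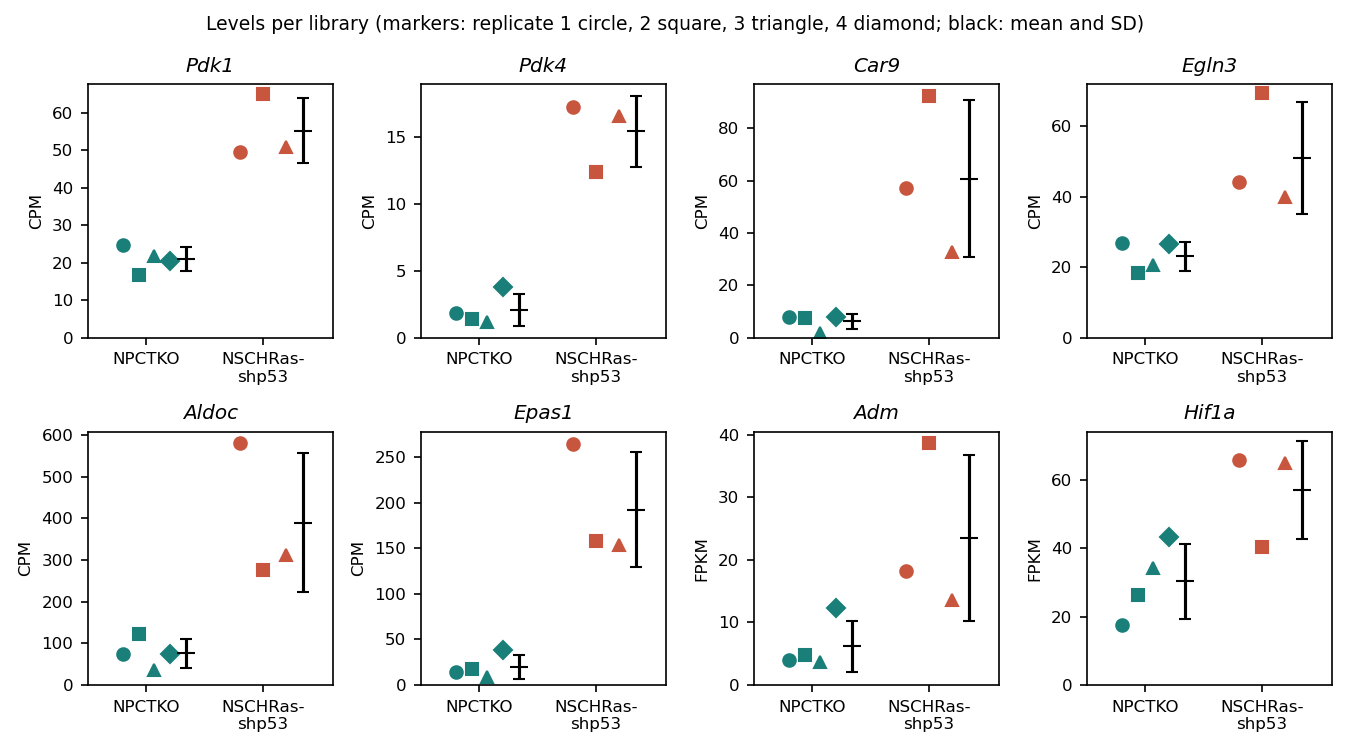
Level in each library (y axis, CPM or, for *Adm* and *Hif1a*, FPKM; each axis starts at 0) by model (x axis), with the mean and SD in black. The models are apart for *Pdk1*, *Pdk4*, *Car9*, *Egln3*, *Aldoc*, *Epas1* and *Adm*, whereas *Hif1a* overlaps.

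The pyruvate dehydrogenase kinases inactivate pyruvate dehydrogenase and so keep pyruvate out of the mitochondria, and their makeup differed between the models. *Pdk1*, the HIF-induced member, was at 24.7, 16.8, 21.9 and 20.6 CPM in NPCTKO samples 1 to 4 and at 49.5, 65.1 and 50.9 CPM in NSCHRas-shp53 samples 1 to 3. Every NSCHRas-shp53 sample was higher, and the log2 fold change was 1.40 ± 0.27 (edgeR adjusted p = 0.0151). *Pdk4*, which responds to fasting and fatty acids, was at 1.82, 1.40, 1.20 and 3.81 CPM in NPCTKO samples 1 to 4 and at 17.3, 12.4 and 16.6 CPM in NSCHRas-shp53 samples 1 to 3. Again there was no overlap, and the log2 fold change was 2.90 ± 0.50 (edgeR adjusted p = 0.0104). The call of *Pdk1* was lost without NSCHRas-shp53 sample 2 or sample 3 and that of *Pdk4* without sample 3, with edgeR adjusted p-values of up to 0.0799 and 0.0513.

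*Pdk3* ran against its relatives. It was at 39.2, 36.7, 31.5 and 47.3 CPM in NPCTKO samples 1 to 4 and at 23.7, 17.4 and 22.7 CPM in NSCHRas-shp53 samples 1 to 3, and all NSCHRas-shp53 samples were below all NPCTKO samples. Its log2 fold change of -0.86 ± 0.29 was not called by edgeR (adjusted p = 0.0830), whereas limma on log2(FPKM + 1) called it lower (-0.89 ± 0.25, adjusted p = 0.0478), against a background of 6.52%. *Pdk2* was at 12.5 to 32.8 CPM in NPCTKO and 29.2 to 34.2 CPM in NSCHRas-shp53 samples and was not called (log2 fold change 0.65 ± 0.40, edgeR adjusted p = 0.313).

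Within the summed FPKM of the 4 kinases, *Pdk3* made up 60.0%, 53.3%, 57.0% and 67.9% in NPCTKO samples 1 to 4 but 27.3%, 22.1% and 26.1% in NSCHRas-shp53 samples 1 to 3. *Pdk3* was the largest share in each NPCTKO sample, and *Pdk2* was the largest in each NSCHRas-shp53 sample, at 37.3% to 39.7%. The share of *Pdk1* was 12.7% ± 3.3 (SD, n = 4) against 25.3% ± 3.7 (n = 3), and that of *Pdk4* 1.7% ± 0.8 against 10.9% ± 1.4. The shares of all 4 kinases were free of overlap in FPKM, and that of *Pdk2* overlapped when counts per kilobase were used instead. Shares sum to 100%, so they do not move independently, and no test was run on them.

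**Figure D3:**
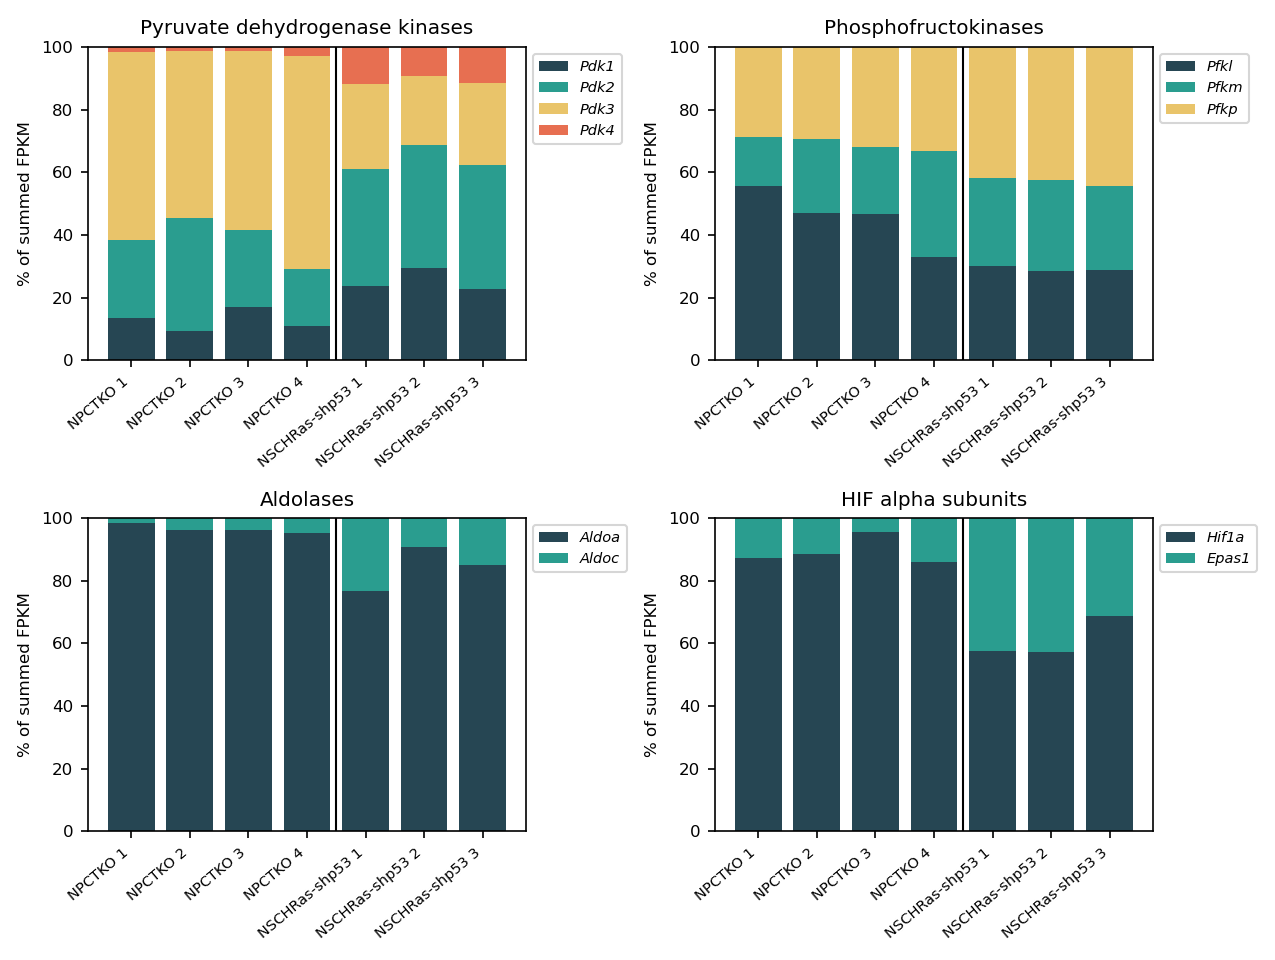
Share of each relative in the summed FPKM of its family (y axis, %) in each library (x axis) for the pyruvate dehydrogenase kinases, phosphofructokinases, aldolases and HIF alpha subunits. *Pdk3* fills 53.3% to 67.9% of the kinase bars in NPCTKO and 22.1% to 27.3% in NSCHRas-shp53 samples.

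The enzymes from aldolase to pyruvate included the genes with the highest FPKM of the set (*Gapdh*, at 829 to 2441), and of 9 genes *Aldoc* was the only one called. *Aldoc* encodes the brain aldolase, which astrocytes express strongly. It was at 73.6, 122, 35.9 and 74.1 CPM in NPCTKO samples 1 to 4 and at 581, 276 and 313 CPM in NSCHRas-shp53 samples 1 to 3. The lowest NSCHRas-shp53 sample was above the highest NPCTKO sample, and the log2 fold change was 2.35 ± 0.46 (edgeR adjusted p = 0.0162). Without NSCHRas-shp53 sample 1 or sample 3 the call was lost (edgeR adjusted p of up to 0.0549). The ubiquitous *Aldoa* was at 1991, 1473, 364 and 659 CPM in NPCTKO and at 814, 1168 and 778 CPM in NSCHRas-shp53 samples, and did not separate (log2 fold change -0.29 ± 0.59, edgeR adjusted p = 0.786). The share of *Aldoc* in the summed aldolase FPKM was 3.6% ± 1.3 against 15.8% ± 7.1, without overlap, and in counts per kilobase it was 4.03% to 11.3% against 21.2% to 44.8%. For *Aldoa*, 61.2% of exonic bases lie inside *Fam57b* in the count table, and its FPKM row is shared with *Ppp4c*.

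None of the other enzymes of this stretch was called by edgeR. *Gapdh*, the dehydrogenase often used as a reference gene, was at 3011, 2224, 882 and 1152 CPM in NPCTKO and at 1818, 2361 and 1606 CPM in NSCHRas-shp53 samples, with a log2 fold change of 0.09 ± 0.52 (edgeR adjusted p = 0.935). *Pkm*, the pyruvate kinase, was at 3210, 2158, 1037 and 1191 CPM in NPCTKO samples but at a steady 1165, 1202 and 1275 CPM in NSCHRas-shp53 samples (log2 fold change -0.65 ± 0.50, edgeR adjusted p = 0.419). The NPCTKO libraries spanned the NSCHRas-shp53 values for both genes. Log2 fold changes of *Tpi1*, *Pgk1*, *Pgam1*, *Eno1* and *Eno2* lay between -0.52 and 0.40 and none was called. *Eno2*, the neuronal enolase, was the only one of these 5 without overlap in CPM, at 59.1 to 85.8 against 91.3 to 103, while neuronal markers were higher in the same samples. Many of these enzymes have processed pseudogenes whose reads the counting may have shared, so their counts are uncertain.

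Glucose uptake and trapping had 0 called genes of 4, by edgeR, DESeq2 and limma and also at an unadjusted p under 0.05. *Slc2a3*, the high-affinity glucose transporter of neurons, was at 55.5 to 133 CPM in NPCTKO and 70.4 to 108 CPM in NSCHRas-shp53 samples. *Hk1*, the housekeeping hexokinase, was at 110 to 195 and 146 to 180 CPM. *Hk2*, the inducible hexokinase, was at 221, 356, 49.5 and 145 CPM in NPCTKO and at 178, 108 and 116 CPM in NSCHRas-shp53 samples. Its fold range within NPCTKO, 7.19, was the widest of the 34 genes with counts there, and the log2 fold change between the models was -0.53 ± 0.58 (edgeR adjusted p = 0.582). *Gpi1*, which isomerizes glucose 6-phosphate, was at 296 to 1026 and 329 to 557 CPM.

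Phosphofructokinase, the committed step of glycolysis, and its regulators had 0 called genes of 5 by edgeR and limma and 1, *Pfkp*, by DESeq2. DESeq2 called 2030 of all 16091 genes higher. *Pfkp*, the platelet-type isoform, was at 210, 186, 123 and 132 CPM in NPCTKO and at 282, 306 and 290 CPM in NSCHRas-shp53 samples. These values did not overlap, and the log2 fold change of 0.85 ± 0.30 was not called by edgeR (adjusted p = 0.0972, unadjusted p = 0.0202). *Pfkl*, the liver-type isoform, was at 444, 321, 141 and 116 CPM in NPCTKO and at 170, 153 and 163 CPM in NSCHRas-shp53 samples, which lay within the NPCTKO range. In shares of the summed FPKM of the 3 isoforms, *Pfkl* was at 45.6% ± 9.4 against 29.1% ± 0.8 and *Pfkp* at 30.9% ± 2.0 against 42.8% ± 1.3. Both shares were free of overlap. The largest isoform depended on the unit, as *Pfkp* had the largest share of every NSCHRas-shp53 sample in FPKM, whereas *Pfkm* had it in counts per kilobase (44.6% to 45.1%, against 24.8% to 27.5% for *Pfkp*). *Pfkm*, the muscle-type isoform, did not overlap in CPM (54.7 to 117 against 124 to 127) but overlapped in its share, and *Pfkfb3* and *Pfkfb4*, which make the activator of phosphofructokinase, overlapped in both.

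In lactate metabolism 0 of 4 genes were called by edgeR, DESeq2 or limma, and *Ldhb* was the one gene with an unadjusted p under 0.05. *Ldha*, which favours lactate formation, was at 1530, 1242, 338 and 477 CPM in NPCTKO and at 569, 552 and 417 CPM in NSCHRas-shp53 samples. NPCTKO samples 1 and 2 were far above all others, and the log2 fold change of -0.81 ± 0.57 was not called (edgeR adjusted p = 0.375). *Ldhb*, the form that favours pyruvate, was at 119, 82.5, 130 and 62.3 CPM against 219, 237 and 123 CPM, with a log2 fold change of 0.97 ± 0.37 (edgeR adjusted p = 0.117). *Ldhb* made up 8.8%, 7.7%, 31.0% and 13.9% of the summed *Ldha* and *Ldhb* FPKM in NPCTKO samples 1 to 4 and 32.3%, 36.3% and 26.7% in NSCHRas-shp53 samples 1 to 3. NPCTKO sample 3 fell among the NSCHRas-shp53 samples and the other 3 below them. The lactate exporter *Slc16a3* (MCT4) was at 307, 185, 49.7 and 86.4 CPM against 75.0, 79.6 and 58.6 CPM (log2 fold change -1.14 ± 0.58, edgeR adjusted p = 0.227), and *Slc16a1* (MCT1) was at 63.6 to 123 against 115 to 200 CPM.

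The sorted NPCTKO samples differed widely among themselves. NPCTKO sample 1 had the highest CPM of its model for 17 of 34 genes, against a background of 24.5% of all genes, and the lowest for 1, against 24.8%. NPCTKO sample 3 was the opposite, with the lowest CPM for 23 genes, against 33.1%, and the highest for 1, *Ldhb*, against 29.5%. NPCTKO sample 2 was highest for 7 (24.9%) and lowest for 4 (21.8%), and NPCTKO sample 4 was highest for 9 (20.9%) and lowest for 6 (19.2%). For 18 of 34 genes NPCTKO samples 1 and 2 were both above samples 3 and 4, against a background of 37.9%, and for 3 (*Slc2a3*, *Car12* and *Hif1a*) both were below, against 36.3%. The 9 genes from aldolase to pyruvate took 0.928%, 0.679%, 0.462% and 0.532% of the counts in NPCTKO samples 1 to 4 and 0.651%, 0.840% and 0.697% in NSCHRas-shp53 samples 1 to 3. NPCTKO samples 1 and 2 also leaned to GC-rich transcripts, with Spearman correlations across genes between GC content and the deviation of a gene's level of 0.57 and 0.49, against -0.38 to -0.16 in the other 5 libraries. The part of this lean in the spread was not tested.

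Calls among all genes, the 34 included, changed with the NPCTKO samples used. With NPCTKO samples 3 and 4 left out together, 9 of the 34 genes were called lower in NSCHRas-shp53 by edgeR, against a background of 26% of all genes in that fit, and 6 were called higher, against 27.9%. The lower count was thus near the background, and the genes were *Hk2*, *Gpi1*, *Pfkl*, *Aldoa*, *Tpi1*, *Pkm*, *Ldha*, *Slc16a3* and *Pdk3*. With NPCTKO samples 1 and 2 left out together, 0 were called lower, against 7.4%, and 7 higher, against 8.95%, by the same test. Only *Pdk3* of those 9 genes kept 1 sign over all 20 alternatives that were fitted.

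**Figure D4:**
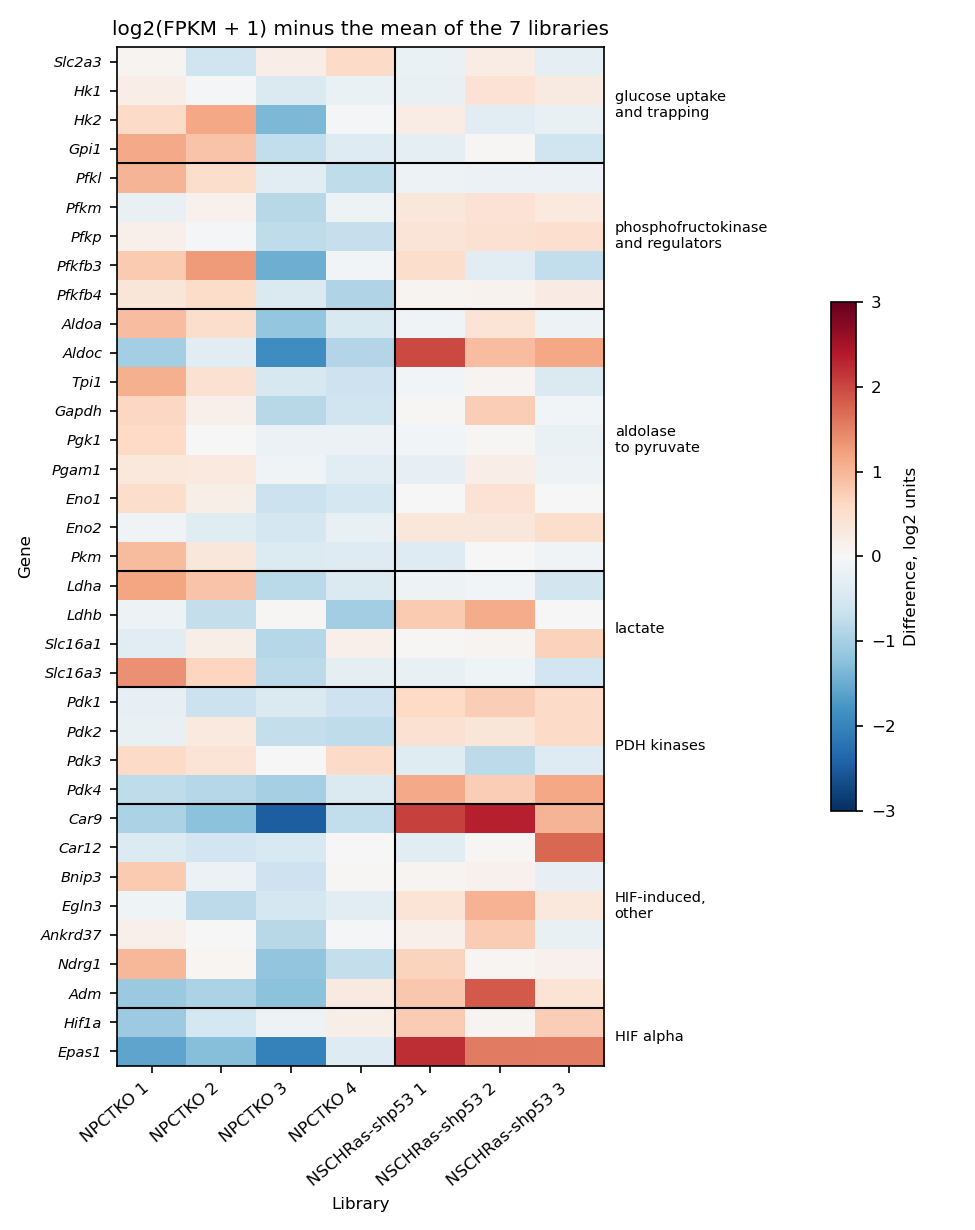
Difference of log2(FPKM + 1) from the mean of the 7 libraries (color, log2 units) for each of the 35 genes (rows, grouped by role) in each library (columns). NPCTKO sample 3 is low for most enzymes, NPCTKO samples 1 and 2 are high for *Ldha*, *Pkm* and *Slc16a3*, and the 3 NSCHRas-shp53 samples are high for *Aldoc*, *Pdk4*, *Car9* and *Epas1*.

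The TAM markers moved with part of this spread. From high to low, *Hk2* ran through NPCTKO sample 2, NPCTKO sample 1, NSCHRas-shp53 sample 1, NPCTKO sample 4, NSCHRas-shp53 sample 3, NSCHRas-shp53 sample 2 and NPCTKO sample 3, and the summed TAM level ran through all 7 libraries in the same order. *Hk2* was the only one of 34 genes with this order. *Pfkfb3*, at 293, 423, 60.0 and 176 CPM in NPCTKO and 274, 148 and 105 CPM in NSCHRas-shp53 samples, shared 5 of the 7 places, with NSCHRas-shp53 samples 2 and 3 exchanged. *Slc16a3*, whose fold range within NPCTKO was 6.18, shared 1, although NPCTKO samples 1 and 2 were highest and NPCTKO sample 3 lowest in both orders. These genes were singled out after their values were seen, 7 libraries of unlike composition and GC lean underlie the order, and the part of TAM content was not tested.

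**Figure D5:**
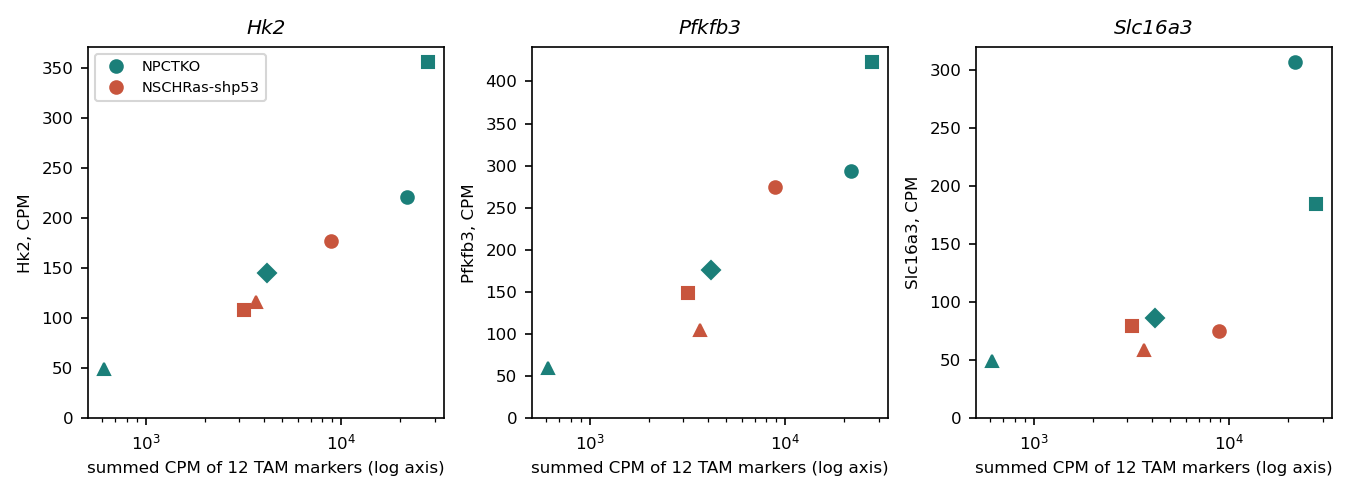
CPM of *Hk2*, *Pfkfb3* and *Slc16a3* (y axis, from 0) against the summed CPM of 12 TAM markers (x axis, log scale) in the 7 libraries, with replicates 1, 2, 3 and 4 as circle, square, triangle and diamond. *Hk2* rises in the same order as the marker sum, from 49.5 CPM in NPCTKO sample 3 to 356 CPM in NPCTKO sample 2. *Slc16a3* does not keep that order, although NPCTKO samples 1 and 2 are highest and NPCTKO sample 3 lowest for both.

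The regions before the start sites of the genes that differed are shown because HIF recognizes the core letters ACGTG or GCGTG, which were searched on both strands with overlaps allowed. Each sequence is the 250 bases before a RefSeq start (build GRCm38.p6), 5′ to 3′ on the strand of the gene, and capitals mark a match (CACGT and CACGC are the same letters read on the other strand). For genes with several starts, the one nearest to the 5′ end in the count table was taken. *Ldha*, which was not called, is shown last for comparison.
Pdk1: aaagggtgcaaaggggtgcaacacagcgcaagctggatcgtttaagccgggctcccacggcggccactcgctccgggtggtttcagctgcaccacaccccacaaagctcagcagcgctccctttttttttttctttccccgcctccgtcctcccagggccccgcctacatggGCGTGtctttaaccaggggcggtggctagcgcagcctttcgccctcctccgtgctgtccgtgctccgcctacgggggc
Pdk4: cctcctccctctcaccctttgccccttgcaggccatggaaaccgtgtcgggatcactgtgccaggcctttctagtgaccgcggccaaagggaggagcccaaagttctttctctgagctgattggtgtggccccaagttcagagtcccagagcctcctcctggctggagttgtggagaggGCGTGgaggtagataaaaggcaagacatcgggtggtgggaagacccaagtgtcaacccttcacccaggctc
Aldoc: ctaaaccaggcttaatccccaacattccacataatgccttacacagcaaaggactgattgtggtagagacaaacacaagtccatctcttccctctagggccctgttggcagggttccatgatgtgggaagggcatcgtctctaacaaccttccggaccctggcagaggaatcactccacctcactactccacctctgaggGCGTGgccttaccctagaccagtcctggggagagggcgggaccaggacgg
Car9: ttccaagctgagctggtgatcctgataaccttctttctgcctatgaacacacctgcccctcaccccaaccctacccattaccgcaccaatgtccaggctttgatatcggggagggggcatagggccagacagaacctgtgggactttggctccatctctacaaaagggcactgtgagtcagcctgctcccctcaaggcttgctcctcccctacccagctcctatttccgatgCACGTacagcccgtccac
Egln3: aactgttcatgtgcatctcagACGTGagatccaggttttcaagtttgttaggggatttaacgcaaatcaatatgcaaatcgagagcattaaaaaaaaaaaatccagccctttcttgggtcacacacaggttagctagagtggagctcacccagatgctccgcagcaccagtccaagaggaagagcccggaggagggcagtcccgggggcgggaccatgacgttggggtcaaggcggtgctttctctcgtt
Adm: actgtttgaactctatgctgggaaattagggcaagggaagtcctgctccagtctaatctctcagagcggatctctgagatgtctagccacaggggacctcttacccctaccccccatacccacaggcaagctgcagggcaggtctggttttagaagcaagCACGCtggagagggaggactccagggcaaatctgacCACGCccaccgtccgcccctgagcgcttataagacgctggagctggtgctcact
Ldha: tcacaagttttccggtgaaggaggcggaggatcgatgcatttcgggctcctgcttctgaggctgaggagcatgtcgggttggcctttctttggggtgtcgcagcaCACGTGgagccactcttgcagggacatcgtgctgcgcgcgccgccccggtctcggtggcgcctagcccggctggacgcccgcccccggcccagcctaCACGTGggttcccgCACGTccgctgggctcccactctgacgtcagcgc
The windows are chr2:71872974-71873223 (+ strand), chr6:5496279-5496528 (- strand), chr11:78322823-78323072 (+), chr4:43506776-43507025 (+), chr12:54203875-54204124 (-), chr7:110627407-110627656 (+) and chr7:46845554-46845803 (+), in that order. In the annotation of the count table those of *Pdk1* and *Egln3* lie upstream of the gene and that of *Adm* upstream of *Adm* but inside *Gm28863*, whereas those of *Pdk4*, *Aldoc*, *Car9* and *Ldha* lie partly or wholly inside the gene's own span.

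The match of *Car9* begins 18 bases before its start, those of *Aldoc*, *Pdk4* and *Pdk1* 50, 71 and 78 bases before, and that of *Egln3* 229 bases before. *Adm* has 2 matches, 90 and 54 bases before its start. *Ldha* has 5 matches, as CACGTG reads as a match on both strands, although it was not called between the models. Of the 32 genes with a RefSeq entry, 28 (87.5%) held at least 1 match in the window of some start, compared with 58.3% of 11710 genes tested with edgeR and 41.5% of all 27025 genes in the table. For ACGTG alone the shares were 53.1%, 24.0% and 18.5%. A gene with more starts has more windows that can hold a match, and the sets were not matched for the number of starts. In the window of the start taken by the rule above, *Hk1*, *Gpi1*, *Aldoa*, *Tpi1*, *Eno2*, *Pkm* and *Car12* held no match. With the most GC-rich window taken for each gene, the median GC content was 62.8% for the 32 genes and 60.8% for the genes tested with edgeR. *Slc2a3*, *Ndrg1* and *Epas1* had no entry. Many of these genes are known HIF targets, which is why they were chosen, and a match is a description of the letters only.

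Genes around the pathway were taken from lists written by name. The edgeR counts and medians of every list below stand against the same background. Of all 16091 genes tested, 7.77% were higher and 5.28% lower, and the median log2 fold change was -0.10. Of 25 other hypoxia-induced genes, 1 was higher and 1 lower, with a median log2 fold change of 0.14. *Tmem45a* was at 0.202 to 1.61 CPM in NPCTKO and 5.99 to 11.3 CPM in NSCHRas-shp53 samples (log2 fold change 3.59 ± 0.75, edgeR adjusted p = 0.0198), a call lost without any 1 NSCHRas-shp53 sample (edgeR adjusted p of up to 0.0898). *Kdm4b*, a histone demethylase, was at 79.5 to 183 against 49.8 to 55.9 CPM (log2 fold change -1.29 ± 0.35, edgeR adjusted p = 0.0458). Its call was lost without NPCTKO sample 1 or 2 or any 1 NSCHRas-shp53 sample, with an adjusted p of up to 0.163 over all alternatives. *Kdm4b* was called in 10 of 20 alternatives, and not without TMM factors, with upper-quartile factors or without a filter on low counts.

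Of 11 regulators and partners of HIF, 1 was higher and 1 lower, with a median of -0.22. *Hif3a*, the third alpha subunit, was at 0 to 0.538 CPM in the sorted cells and reached 4.70, 15.1 and 18.1 CPM in NSCHRas-shp53 samples 1 to 3 (log2 fold change 5.47 ± 0.94, edgeR adjusted p = 0.0106). *Siah2*, a ubiquitin ligase that targets the prolyl hydroxylases, was at 36.8 to 92.7 against 20.2 to 24.3 CPM (log2 fold change -1.53 ± 0.41, edgeR adjusted p = 0.0454). Both were free of overlap. The call of *Hif3a* was lost without NSCHRas-shp53 sample 3, and that of *Siah2* without NPCTKO sample 1 or 2 or any 1 NSCHRas-shp53 sample, with adjusted p-values of up to 0.0586 and 0.179 over all alternatives. *Siah2* was called in 8 of 20 alternatives, and not with upper-quartile factors, without a filter on low counts or by limma on FPKM.

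Of 10 genes for the entry of pyruvate into mitochondria, 1 was higher and 0 were lower (1 at an unadjusted p under 0.05, 0 by DESeq2 or limma), with a median of -0.31. *Pdp1* encodes a phosphatase that reverses the action of the pyruvate dehydrogenase kinases. It was at 8.27, 7.10, 14.1 and 10.6 CPM in NPCTKO and at 41.8, 43.7 and 43.2 CPM in NSCHRas-shp53 samples (log2 fold change 2.09 ± 0.32, edgeR adjusted p = 0.00789). *Pdk1*, *Pdk4* and the phosphatase that opposes them were thus all higher in the unsorted tissue.

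Of 7 tested genes of the pentose phosphate pathway, 0 were higher (also unadjusted, and by DESeq2 and limma) and 1 was lower, with a median of -0.69. *Rpia*, which interconverts pentose phosphates, was at 25.8 to 43.0 against 9.95 to 15.0 CPM (log2 fold change -1.47 ± 0.32, edgeR adjusted p = 0.0226), and *G6pdx* had 0 counts in all libraries. The call of *Rpia* was lost without NPCTKO sample 1 or 2 or any 1 NSCHRas-shp53 sample (adjusted p of up to 0.12 over all alternatives). Of 11 tested genes of gluconeogenesis and glycogen, 1 was higher and 1 lower, with a median of 0.40. *Gbe1*, the glycogen branching enzyme, was at 8.27 to 12.3 against 31.3 to 48.1 CPM (log2 fold change 1.90 ± 0.32, edgeR adjusted p = 0.00952). *Fbp1*, which opposes phosphofructokinase, was at 1.03 to 3.59 against 0.101 to 0.273 CPM (log2 fold change -3.47 ± 0.71, edgeR adjusted p = 0.0188). Without NSCHRas-shp53 sample 2 the calls of both were lost, and without sample 3 that of *Fbp1*, with adjusted p-values of up to 0.0511 for *Gbe1* and 0.105 for *Fbp1* over all alternatives. *Fbp1* was called in 15 of 20 alternatives, and not by limma on log2(FPKM + 1). Of 16 genes of the TCA cycle 0 were called by edgeR or limma and 1, *Sdhb*, was called lower by DESeq2, with a median of -0.37 in edgeR. DESeq2 called 1932 of all 16091 genes lower. *Sdhb*, a subunit of succinate dehydrogenase, was also the one with an unadjusted p under 0.05 in edgeR (log2 fold change -1.21 ± 0.40).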

How the data were processed

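Poly(A) RNA of 7 samples was sequenced with a non-directional kit, so reads of overlapping or antisense genes cannot be told apart by strand. The authors trimmed reads (cutadapt 1.16 in the submitters' processing notes) and mapped them to mm10 with TopHat2 2.1.1. Raw counts per gene were deposited without the name of the counting program. FPKM values were deposited from Cufflinks 2.2.1, and 3767 of 28538 rows carry no gene name. Genes inside the span of others hold few or 0 counts (4 of the 35 genes have over 50% of exonic bases there), so *Adm* was read from FPKM.

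Counts were tested with edgeR 4.0.16 (TMM, filterByExpr, quasi-likelihood) in R 4.3.3 over 16091 genes, and log2(FPKM + 1) with limma 3.58.1 over 13381 genes whose mean FPKM reached 1. p-values were Benjamini-Hochberg adjusted over all genes tested. The SE printed with an edgeR fold change was derived from the test, as the absolute log2 fold change divided by the square root of its F statistic. DESeq2 1.42.0, other scalings, filters and pseudocounts, a GC offset, a replicate block and left-out libraries were the alternatives, 17 fits of the counts and 3 of FPKM. Setting replicates 1 to 3 without the block, the same fit as without NPCTKO 4, beside the block was added after the data were seen. Tables and plots were made in Python 3.11.15. On simulated data for this comparison (15826 genes), edgeR called 0 of 48 genes changed 2-fold, 7 of 48 at 4-fold and 38 of 47 at 16-fold.

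The 35 genes and all lists were chosen with earlier results of these data known. All 35 genes are described by role; per-library values are given for called genes, both HIF alpha subunits and families whose shares separated, and the called genes of each further list are named. Libraries held 15002873 to 19840860 counts, and 3 counts amount to 0.130 to 0.234 CPM (counting error only). The labels do not say whether samples are separate mice, so p-values measure the spread between these samples.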

Additional observations from a re-analysis of the deposited data

Results flagged for a closer look

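In 35 genes, the 4 NPCTKO samples were searched for a sample that stands apart, meaning that its gap to the nearest other sample, divided by the range of the group, exceeded Dixon's critical value for 4 samples at the 95% level. Chance alone flags about 1 in 20 such groups, and 2 of 35 genes passed. *Car9* was at 1.72 CPM in NPCTKO sample 3, below the other sorted samples (gap over range 0.915). In FPKM, NPCTKO sample 3 was lowest too, at 0.832 against 3.35 to 5.15. The other samples were more spread out there and its gap would not pass the rule, so the flag depends on the unit. *Adm* was at 12.2 FPKM in NPCTKO sample 4, above the other sorted samples (gap over range 0.876). The groups of 3 NSCHRas-shp53 samples were not searched.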

How the results depend on the processing

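Over 20 alternatives, 17 fits of the counts and 3 of FPKM, no called gene changed its sign, whereas 18 of 34 genes, none of them called, did so at least once. *Epas1* was called in all 20, *Car9* and *Pdk4* in 19, *Aldoc* and *Pdk1* in 17 and *Egln3* in 10. *Pdk3* was called lower in 6, so that 1 of the genes was lower by DESeq2, by limma at either pseudocount or without a filter, and with a GC offset. With NPCTKO 3 and 4 left out together, 8951 of all genes tested were called. In that fit 9 of the genes were lower, and of the 79 further pathway genes 26 were lower and 20 higher. The background there was 26% of all genes lower and 27.9% higher. With NPCTKO 1 and 2 left out, 8 further genes were higher, against a background of 8.95%. DESeq2 called 3962 of all genes, against 2101, and 7 further genes higher, against 4. Further genes lower numbered 2 with upper-quartile factors and with limma on log2(FPKM + 1) with or without a filter, against 4. The cause was not tested. Without a filter on low FPKM *Adm* kept its difference of 1.777 and lost its call (limma adjusted p = 0.0546), as more genes were tested.

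Leaving out 1 library, which also leaves fewer samples, gave 2 to 5 of the genes higher, 2 to 7 further genes higher, 0 to 4 lower and 539 to 2595 of all genes called. The lowest counts came without NSCHRas-shp53 2 or 3. The difference of *Adm* ranged from 1.364 to 2.119. Without TMM factors the median of all genes moved by 0.18 and 69.2% of calls were higher, against 59.5%. In that fit 7 of the 34 genes with counts were called higher, beside 1211 of all 16091 genes.

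Samples of the same replicate number did not deviate together in every pair (r = 0.28, -0.19 and 0.19 across genes), so the numbers were not taken as pairs. With a replicate block on replicates 1 to 3, 3 of the genes were higher (*Car9*, *Pdk4* and *Epas1*), 0 further genes were lower and 1069 of all genes were called. Without the block the same 6 libraries gave 5, 4 and 1814, a comparison chosen after seeing the data, whose fit is the one without NPCTKO 4 and is counted once. Depth limits genes at a few CPM in one model, such as *Pdk4*, *Car12*, *Tmem45a*, *Hif3a* and *Fbp1*.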
